A study of Mus musculus with 6 samples.

Results

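Late strong regions are stretches of open chromatin that were listed after 72 h of Th17 culture and not before. They were chosen by the peak lists themselves: a region was taken when it held a peak at 72 h, none in naive cells and none at 48 h, and when its peak score, the whole number the authors gave each peak, was 78 or more. This rule gave 2904 regions, which are 3.57% of the 81315 regions left after overlapping peaks of any of the lists (1 bp or more in common) were merged. They are 5.59% of the 51941 regions with a 72 h peak and 19.5% of the 14876 regions seen at 72 h only. The other 11972 regions seen at 72 h only scored 77 or less and are called late weak below.

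The study followed wild-type CD4 T cells of C57BL/6 mice by ATAC-seq, with 2 libraries and 1 peak list per condition. Naive cells were untreated. Th17 cells were grown for 48 h or 72 h in plates that the labels describe as pre-coated with hamster IgG, with antibodies to CD3ε (0.25 μg/mL) and CD28 (1 μg/mL), TGF-β (0.1 ng/mL) and IL-6 (20 ng/mL). The lists held 53259 peaks in naive cells, 40624 at 48 h and 53926 at 72 h. With 1 list per condition there is no replicate check and no test across cultures, and read depth is unknown, so a region without a peak at 48 h may have fallen short of the calling threshold.

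In ATAC-seq the Tn5 transposase cuts DNA that nucleosomes leave exposed, so peaks mark promoters, enhancers and other regulatory elements. In T cells driven to the Th17 fate, BATF with its partner IRF4 and STAT3, which IL-6 activates, bind such elements early. Promoters tend to be open in many cell states, while distal elements differ more between them. BATF binds AP-1 motifs together with JUN proteins.

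A small set of late strong regions lay at promoters. Of 32851 RefSeq promoter windows, each 250 bases before to 50 after a gene's start on assembly GRCm38.p6, 74 were overlapped by a late strong region, which is 0.225%. These windows were touched by 64 regions, belonged in part to 46 protein-coding genes, and in 54 of them the region covered the start itself. The sequences below are the parts of such regions that lie upstream of the start, written 5′ to 3′ on the gene's strand. Those of Il17a and Il1r1 are shown because both are Th17 genes, and the other 5 because they are the protein-coding genes among the 10 highest-scoring promoter regions. Capitals mark matches to the motifs named after them.

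Il17a, which encodes the cytokine that gives Th17 cells their name, had its start covered by a region with a score of 81. The printed stretch is chr1:20730744-20730904 on the plus strand, and its capitals are a MAF motif.
Il17a: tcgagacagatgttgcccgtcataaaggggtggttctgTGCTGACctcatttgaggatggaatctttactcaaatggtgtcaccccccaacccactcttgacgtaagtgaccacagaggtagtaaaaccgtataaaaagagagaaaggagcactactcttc
Il1r1, the receptor for IL-1, had a RefSeq start covered by a region with a score of 86. This start, at 40225080, lies inside the gene body, which begins at 40222480, so the region counted as inside the gene. The stretch upstream of this start, chr1:40224989-40225079 on the plus strand, held no match.
Il1r1: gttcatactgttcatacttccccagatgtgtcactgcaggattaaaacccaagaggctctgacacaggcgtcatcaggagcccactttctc
Tmem45a, a transmembrane protein gene, had the highest score of the protein-coding promoter regions, 162. No match was found in its stretch, chr16:56886164-56886323 on the minus strand.
Tmem45a: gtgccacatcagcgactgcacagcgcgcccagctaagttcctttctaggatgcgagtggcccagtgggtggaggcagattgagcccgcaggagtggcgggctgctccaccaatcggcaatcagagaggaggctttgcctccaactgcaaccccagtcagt
Scel encodes sciellin, a protein of the epithelial cell envelope, and its region scored 154. The printed stretch is chr14:103513209-103513340 on the plus strand, with a CTCF core and then an AP-1 motif in capitals.
Scel: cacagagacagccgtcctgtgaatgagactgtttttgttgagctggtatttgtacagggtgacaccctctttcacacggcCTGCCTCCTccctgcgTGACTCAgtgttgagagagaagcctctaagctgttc
Ednrb, an endothelin receptor, had a region with a score of 142 and a width of 825 bp. Shown is chr14:103843702-103843951 on the minus strand, without a match.
Ednrb: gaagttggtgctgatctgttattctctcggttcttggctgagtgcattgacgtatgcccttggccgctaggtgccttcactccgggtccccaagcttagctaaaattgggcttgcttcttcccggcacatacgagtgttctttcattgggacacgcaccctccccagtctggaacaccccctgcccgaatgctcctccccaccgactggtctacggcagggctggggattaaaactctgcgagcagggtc
Oas3, an interferon-induced 2′-5′ oligoadenylate synthetase, had a region with a score of 128. Its stretch, chr5:120777660-120777800 on the minus strand, holds an AP-1 motif, an IRF motif and another AP-1 motif in that order.
Oas3: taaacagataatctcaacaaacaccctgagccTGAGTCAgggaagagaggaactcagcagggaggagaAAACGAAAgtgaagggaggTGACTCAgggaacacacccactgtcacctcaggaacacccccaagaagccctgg
Itgax encodes the integrin CD11c, known as a marker of dendritic cells, and its region also scored 128. The printed stretch is chr7:128129463-128129549 on the plus strand, with an AP-1 motif in capitals.
Itgax: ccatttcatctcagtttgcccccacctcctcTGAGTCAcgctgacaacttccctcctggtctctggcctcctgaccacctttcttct

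AP-1 motifs stood in more of these promoter windows than in promoter windows at large. Motifs were counted over the whole window, so a counted match need not lie inside the region that overlaps it. The motif TGANTCA, read on both strands like all motifs here, was in 17 of the 74 windows with a late strong region (23.0%, exact 95% interval 14.0 to 34.2%). It was in 48 of 449 windows with a late weak region (10.7%, 7.99 to 13.9%), in 96 of 605 windows with a region of 48 h and 72 h but not of naive cells (15.9%, 13.0 to 19.0%) and in 7.81% of all windows. For motifs, regions also listed at 48 h or in naive cells were taken at any score, so they are not matched to the late strong ones in score. The late strong interval thus lay just above the late weak one and overlapped the one for regions already listed at 48 h. The STAT motif TTCNNNGAA was in 12 of the 74 windows (16.2%, 8.67 to 26.6%), against 7.13% of the late weak windows, 4.96% of those listed from 48 h and 8.30% of all windows. The late strong interval for STAT overlapped the late weak one, and its low end lay just above the share over all windows.

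For the motifs given next, the late strong interval reached down to or below the share over all windows. The IRF motif AANNGAAA was in 18.9% of the late strong windows and in 23.9% of all windows, and the MAF motif TGCTGAC, which can overlap an AP-1 motif, was in 6.76% and 4.67%. The GC box GGGCGGGG, common in constitutive promoters, was in 20.3% of the late strong windows, 27.6% of the late weak windows and 17.6% of all windows. The CTCF core AGGNGGCNG was in 20.3% of the late strong windows, 22.7% of the late weak windows and 15.4% of all windows. The KLF motif CCACGCCC was in 2.70% of the late strong windows, 5.57% of the late weak windows and 5.33% of all windows. The ETS site CCGGAAGT was in 0 of the 74 windows, for which the interval reaches 4.86%, against 0.668% of the late weak windows, 0.826% of those listed from 48 h and 3.89% of all windows, the last within that interval. It was in 9.31% of the promoter windows whose 72 h region was also listed in naive cells. The NFAT motif TGGAAAAT (1.48% of all windows) and the GATA motif AGATAAGA (1.02%) were likewise in 0 of the 74 windows. An ETS1-type site, ACAGGAAGT, was in 2 of the 74, against 1.03% of all windows. The RUNX motif TGTGGTTT, the TCF/LEF motif CTTTGAT and the T-box motif AGGTGTGA were in 1 of the 74 each, against 1.78%, 3.73% and 1.28% of all windows. The median GC content was 59.5% in the late strong windows, 60.7% in the late weak windows and 52.7% in all windows. The 74 windows come from 64 regions, so they are not independent of each other.

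**Figure D1:**
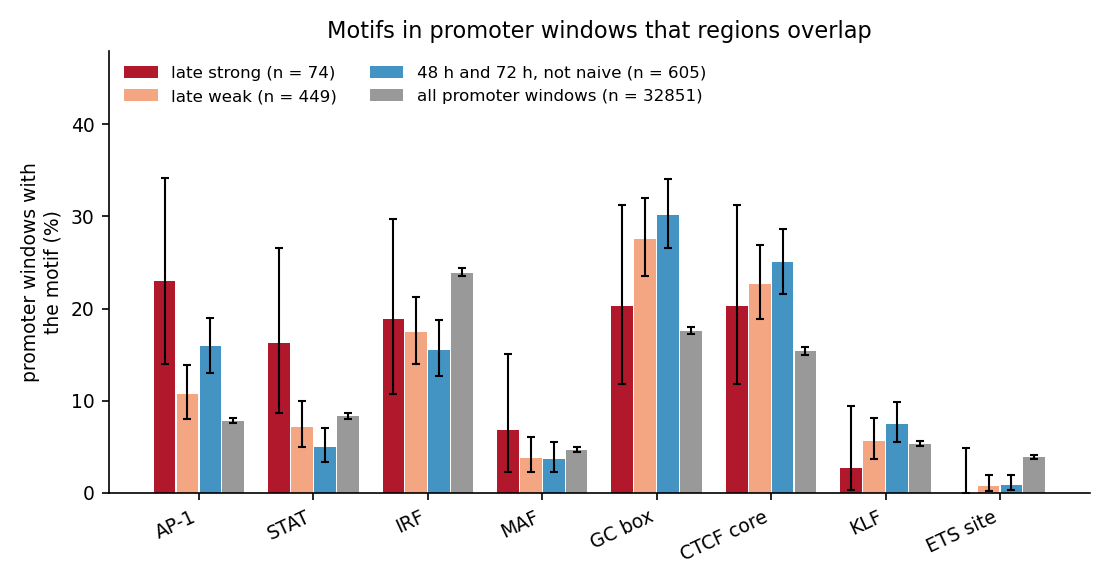
Share of RefSeq promoter windows that hold each motif (%, vertical axis), for windows that late strong regions overlap, windows that late weak regions overlap, windows with a region of 48 h and 72 h but not of naive cells, and all windows. Bars are shares and error bars exact 95% binomial intervals. Regions of 48 h and 72 h were taken at any score. AP-1 stands at 23.0% in the late strong windows against 7.81% in all windows.

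Promoters were the exception, and most late strong regions lay far from gene ends. Only 135 of the 2904 had their middle 1 kb or less from the start or end of a protein-coding gene (4.65%, 3.91 to 5.48%), while 1529 lay inside a gene (52.7%, 50.8 to 54.5%) and 1240 between genes (42.7%, 40.9 to 44.5%). Of the late weak regions, 10.6% (10 to 11.1%) were near a gene end. The share was 7.43% (6.80 to 8.10%) for regions that both Th17 lists held and the naive list lacked, with a score of 78 or more, and 52.0% for regions of the same score that naive cells shared. The 3 groups seen only in Th17 cells therefore all sat mostly away from gene ends, and the late strong interval was the lowest of them. When an earlier peak counted as shared only where it covered at least 50% of the 72 h peak, the late strong share near a gene end was 7.37%. The late strong regions between genes were a median of 29.0 kb from the nearest gene, against 24.6 kb for the late weak ones. The median was 26.7 kb for regions that both Th17 lists held and the naive list lacked, with a score of 78 or more. Over 100 kb away were 493 of 2660 in this group, 266 of 1240 late strong regions and 811 of 4632 late weak ones.

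**Figure D2:**
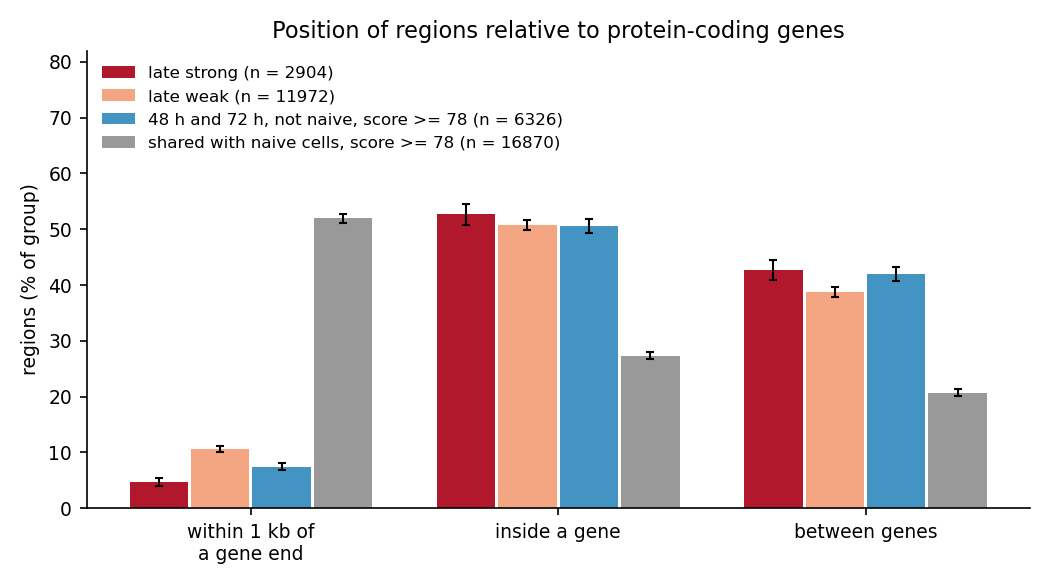
Position of regions relative to protein-coding genes (% of regions, with exact 95% intervals) for late strong regions, late weak regions, regions of 48 h and 72 h but not naive cells, and regions shared with naive cells, the last 2 with a score of 78 or more. Late strong regions were near a gene end in 4.65% of cases, against 52.0% of the regions shared with naive cells.

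Distances to transcription starts, which the RefSeq promoter table gives with strand, showed the same order. The median distance was 24.6 kb for late strong regions, 19.7 kb for late weak regions, 22.3 kb for the regions listed from 48 h and 0.376 kb for those shared with naive cells. Within 1 kb of a start were 4.22% of the late strong regions (3.51 to 5.03%) and 10.3% of the late weak regions (9.76 to 10.9%). The largest class of late strong regions, 43.8%, lay 10 to 50 kb from a start, against 41.6% of the late weak regions and 44.1% of those listed from 48 h. Over 100 kb away were 13.6% of the late strong regions (12.3 to 14.9%) and 11.6% of the late weak regions. The share was 12.3% (11.5 to 13.1%) for those listed from 48 h, an interval that overlaps the late strong one.

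The scores, which chose the regions, are given as a description. They ran from 78 to 325 with a median of 99 (quartiles 86 and 122), and widths ran from 101 to 872 bp with a median of 227 bp. The higher a 72 h region scored, the less often it was seen at 72 h only. The share was 53.8% of regions scoring 30 to 49, 38.4% at 50 to 77, 24.4% at 78 to 99, 16.0% at 100 to 124, 9.88% at 125 to 149, 5.30% at 150 to 199 and 1.05% at 200 or more, where 73 regions were late strong. The share of 72 h-only regions near a gene end was also lower at high scores, with 11.8% at scores of 30 to 49, 5.93% at 78 to 99 and 2.74% at 200 or more, although the last rests on 2 regions.

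Within each class of score, late strong regions were narrower than the others. This is a description only, because width is tied to the rule. A wider 72 h peak is more likely to share a base with an earlier peak and so to be left out. Among 72 h peaks scoring 78 to 99, the median width was 202 bp in late strong regions, 254 bp in regions listed from 48 h and 280 bp in regions shared with naive cells. At 200 or more the medians were 330, 415 and 693 bp in the same order, and the order held in the 3 classes between them. Just inside the threshold, 76 regions scored 78, with a median width of 195 bp, and 6 of them were near a gene end. Just outside it, 52 regions scored 77, with a median width of 178 bp, and 2 were near a gene end. The widest at 78 lay near Gm38564 (419 bp), Atp6v1g3 (372 bp) and Mtus1 (361 bp), and the widest at 77 near Zfp423 (667 bp), Spryd7 (618 bp) and Hsd17b3 (503 bp).

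**Figure D3:**
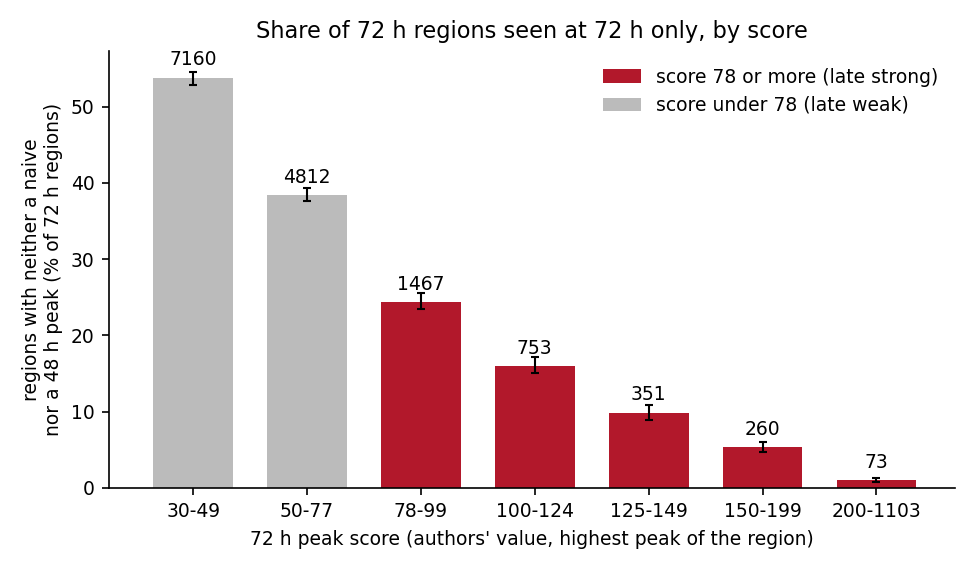
Share of 72 h regions that were seen at 72 h only (%, vertical axis, with exact 95% intervals) by class of peak score (horizontal axis). The share was 24.4% at 78 to 99 and 1.05% at 200 or more.

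Distances to earlier peaks were larger for late strong than for late weak regions, although most late strong regions still had one in the neighbourhood. A naive or 48 h peak lay within 10 kb of 1675 late strong regions (57.7%, 55.9 to 59.5%) and of 63.3% of the late weak ones (62.4 to 64.1%). The nearest 48 h peak was a median of 12.3 kb away, against 9.29 kb for late weak regions, and the nearest naive peak 12.7 kb, against 10.1 kb. Regions of 48 h and 72 h but not naive cells, scoring 78 or more, were a median of 12.0 kb from a naive peak. A naive peak lay within 10 kb of 45.4% of them (44.2 to 46.7%) and of 44.8% of the late strong regions (43.0 to 46.6%). Within 1 kb the shares were 9.07% (8.38 to 9.81%) and 7.54% (6.61 to 8.56%), so the intervals overlapped at either distance. Such regions hold a 48 h peak by rule, so the 48 h distances have no such comparison. A 48 h peak lay within 1 kb of 9.02% of the late strong regions (8 to 10.1%) and of 17.1% of the late weak ones (16.5 to 17.8%). Within 10 kb of a region that 48 h and 72 h share and naive cells lack were 594 late strong regions (20.5%, 19.0 to 22.0%) and 23.1% of the late weak ones (22.4 to 23.9%). From one late strong region to the next the median distance was 146 kb. By chromosome, their share of 72 h regions ran from 3.77% on chromosome 11 to 7.11% on chromosome 13, with 0 of 7 regions on M and 0 of 4 on Y.

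The 20 highest-scoring regions ran from 247 to 325, with 12 inside genes, 8 between genes and 0 near a gene end. The highest, 325, lay at chr2:148522093-148522541, 78557 bp from Cd93, a receptor gene known from endothelial and myeloid cells. Itga4, the α4 integrin subunit that pairs with β1 or β7 in T cell homing, held a region with a score of 292 at chr2:79316309-79316750, 50418 bp from the nearest 48 h peak. Slc4a4, a sodium bicarbonate cotransporter, held one scoring 297. The region scoring 250 whose nearest gene was Ubash3b, an inhibitor of T cell receptor signalling, was 277743 bp from it, so the gene is only the nearest one. The 20 regions were between 1.87 and 98.1 kb from a 48 h peak. Within 10 kb, 4 of them had a 48 h peak and 5 a naive peak, against 44.2% and 44.8% of all late strong regions. Among the other regions, Papss1 (276) and Slc45a4 (275) at the high end and Man2a1 (247) at the low end held theirs. Atp2b1 (276), Dio2 (249) and Peg10 (293) were only the nearest genes, at 352281, 133487 and 45203 bp. The region nearest to Peg10 covered the RefSeq start of LOC115486327, which is not protein-coding.

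By gene, counting regions within 10 kb of the gene body, 1936 of 21900 protein-coding genes had a late strong region, which is 8.84%, and so did 12.1% of the 16024 genes with any 72 h region. Most of them, 1658, had 1 such region, 211 had 2 and 67 had 3 or more. They were long genes, with a median length of 62.3 kb against 17.1 kb for all protein-coding genes, and a longer gene has more room for a region. Of the genes with a late strong region, 89.9% had a naive region and 52.6% a region shared by 48 h and 72 h alone, against 69.0% and 25.1% of all protein-coding genes. The latter shares also count genes without any 72 h region, which cannot have a region shared by 48 h and 72 h. The comparison is therefore not like for like. The other 921 regions were at no protein-coding gene.

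Genes with several late strong regions were mostly long ones. Pcca, a subunit of the mitochondrial propionyl-CoA carboxylase, had the most, 8 of its 23 regions at 72 h, with scores up to 121. Slc4a4 had 5 of 16, Tmtc2, a gene of the endoplasmic reticulum, 5 of 14 with a score up to 218, and the zinc finger gene Zfp407 5 of 19. Ltbp1, which binds latent TGF-β in the matrix, had 4 of 8, where naive cells had 1 region and 48 h had 3. Fancc, a Fanconi anaemia DNA repair gene, and Dock5, an activator of the GTPase Rac, had 4 of 10 each. The other 8 of the leading 15 genes had 4 each, and the 15 genes measured 182 to 1973 kb.

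Of the genes with a late strong region, 96 (4.96%) had no region at all in naive cells or at 48 h, against 26.5% of all protein-coding genes. The shares are not like for like. Genes with a late strong region have a 72 h region by the rule, while only 16024 of the 21900 protein-coding genes have one. They are also longer. The genes named here have the highest scores among the 96 and were chosen after their values were seen. Txndc2, a thioredoxin of sperm, had 3 late strong regions, the highest scoring 203. Prss35, a serine protease gene, had 1 with a score of 193, and Slc25a31, the ADP/ATP carrier of testis, 1 with a score of 183. Slc18a2, the vesicular monoamine transporter, had 1 with a score of 180, and Dnah3, an axonemal dynein, had 3 with a highest score of 178. Star, a steroid synthesis gene, had 1 with a score of 156. The 10 highest-scoring of these genes had 1 to 5 regions each at 72 h.

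Many Th17 lineage genes had a late strong region. Of the 18 genes on the list, 9 had one (50%), against 8.84% of all protein-coding genes and 12.1% of those with a 72 h region. By region the list stood less far from the rest, with 11 late strong of 108 regions at 72 h (10.2%, 5.20 to 17.5%). That interval holds the 5.59% of all 72 h regions. Its low end lies just above the 4.95% (1983 of 40054) of 72 h regions within 10 kb of any protein-coding gene, which is the closer background. Markers of other cells had shares of the same size from fewer regions, with 11.1% at B cell, 11.8% at CD8 and NK cell and 10% at myeloid markers. The same genes had 46 regions that both Th17 lists held and the naive list lacked, against 22 late weak ones. With a score threshold of 100 instead of 78, 3 of the 18 genes had a late strong region.

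At the cytokine genes, the late strong region of Il17a covered the gene's start, 637 bp from a region that was listed at 48 h with a score of 41 and at 72 h with 72. Naive cells had no region at Il17a within 10 kb, and their nearest peak was 88608 bp from this one. Il17f, the neighbouring cytokine gene on the same chromosome, had a late strong region of 139 bp with a score of 106 at chr1:20792673-20792811, 7398 bp from the gene and 892 bp from a region with scores of 118 at 48 h and 194 at 72 h. A RefSeq start of Il17f, which lies inside the gene body, was covered by another 72 h-only region. It was 483 bp wide, and its score of 76 is just under the threshold. Both cytokine genes thus had a region on a RefSeq start at 72 h and none there at 48 h.

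Among the receptors, Ccr6, the chemokine receptor that draws Th17 cells to CCL20, had the highest score of the list, 150, at chr17:8251802-8252043 inside the gene. Il23r, the receptor chain that lets Th17 cells respond to IL-23, had one scoring 131 with a width of 307 bp at chr6:67424907-67425213, in a locus where naive cells had 9 regions and 72 h had 7. Il1r1 had the region at a RefSeq start inside its gene body, with 5 regions already listed from 48 h within 10 kb of the gene and 3 late weak ones. The nearest 48 h peak was 9312 bp from the late strong region of Ccr6, 9358 bp from that of Il23r and 7654 bp from that of Il1r1.

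Among the transcription factors, Rora, a nuclear receptor that takes part in Th17 differentiation, had 2 late strong of 29 regions at 72 h, scoring 82 and 81. Batf had one scoring 79, and Hif1a, the oxygen-sensing factor that promotes glycolysis, had 2 within 10 kb beyond its gene, scoring 99 and 91, of which the one scoring 91 lay nearer to Snapc1. Within 10 kb, Il21, Il22, Il1r2, Ccl20, Maf, Ahr, Stat3, Il10 and Csf2 had none, and Il22 had no region of any kind. Ahr was the nearest gene to a late strong region scoring 141 at chr12:35480638-35481024, which lay beyond 10 kb. With 50 kb flanks, 10 of the 18 Th17 genes had a late strong region, against 18.2% of all protein-coding genes.

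**Figure D4:**
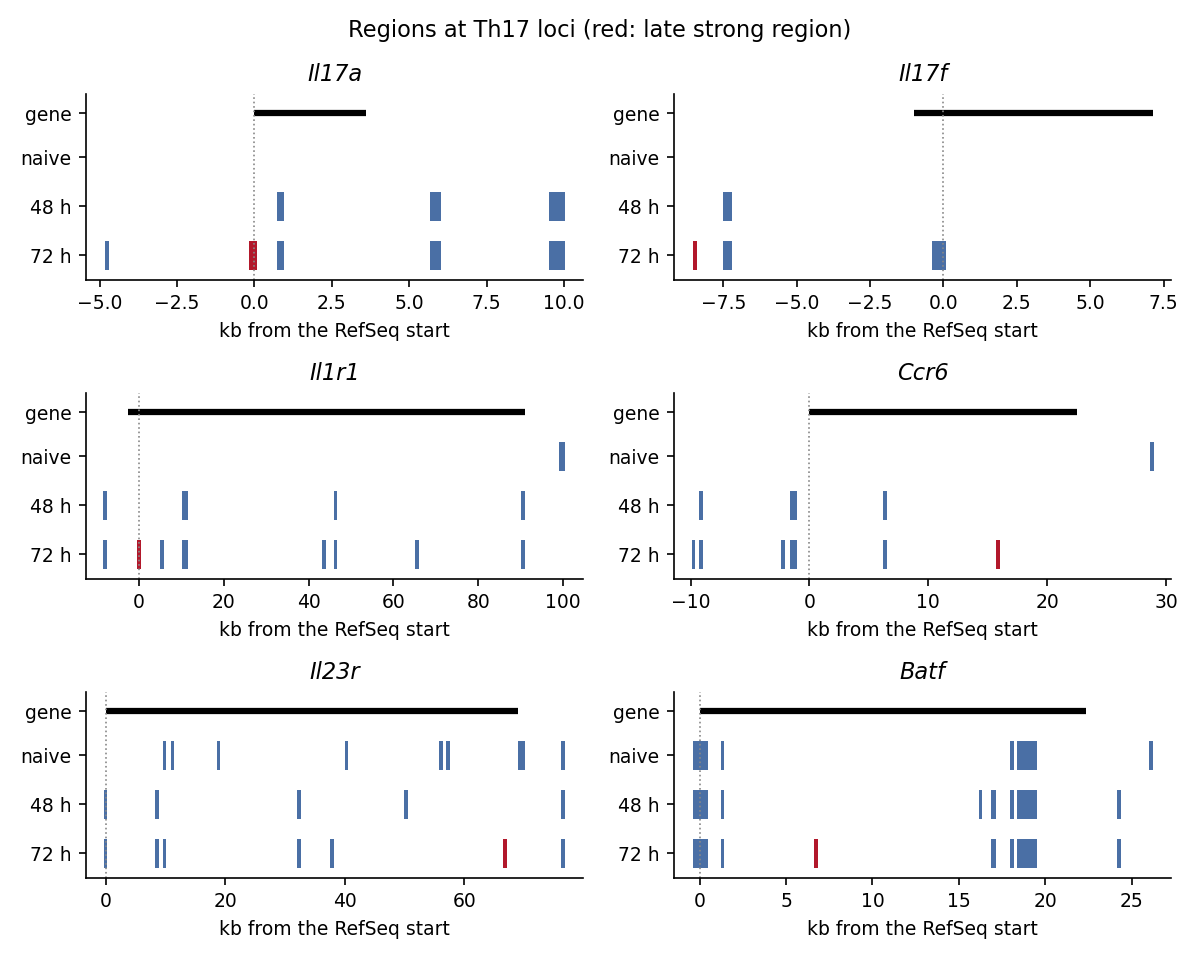
Regions at 6 Th17 loci in the naive, 48 h and 72 h lists, in kb from the RefSeq start, with the gene body as a black bar; narrow regions are drawn wider than scale so that they can be seen. Red marks the late strong region of each locus, which in Il17a and Il1r1 covers the RefSeq start. In Il1r1 this start lies inside the gene body, as does the RefSeq start of Il17f.

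Of 18 genes known from naive and resting T cells, 4 had a late strong region (22.2%), against 8.84% of all protein-coding genes and 12.1% of those with a 72 h region, and 6 of their 178 regions at 72 h were late strong (3.37%, 1.25 to 7.19%), an interval that holds the 5.59% of all 72 h regions. Bach2, a repressor that keeps T cells quiescent, had 2, with scores of 108 and 86, and Foxp1, which also holds naive cells in quiescence, had 2, with 90 and 125. Btg1 had one scoring 88 and Ets1 one scoring 84. The genes of this list had 272 regions in naive cells, 134 at 48 h and 178 at 72 h, and Foxp1 alone had 78 in naive cells.

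The remaining lists had between 0 and 4 late strong regions each, and the interval of each held the 5.59% of all 72 h regions. T cell activation genes had 4 of 102 regions, at Nfkb1 (89 and 114), Cd44 (119) and Nfatc1 (79). TGF-β signalling genes had 2 of 96, at Tgfbr2, the receptor, with a score of 154 only 161 bp from the gene end, and at Smad4 (131). The IL-6 and STAT3 pathway had 1 of 89, at the kinase gene Tyk2 (114), and the genes for AP-1, BATF and IRF factors 1 of 68, at Atf3 (81). Regulatory T cell genes had 1 of 65, at Ikzf2 (162), Th1 genes 1 of 53, at Stat4 (142), Tfh genes 2 of 57, at Tox (97) and Pdcd1 (90), and Th2 genes 0 of 40. Growth genes had 1 of 94, at Ccnd3 (80), housekeeping genes 0 of 30 and genes of unrelated tissues 0 of 13.

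Markers of T cells and of other cells were looked at as a check on the label. Of 14 pan T cell genes, 14 had a region in naive cells and 14 at 72 h, and 3 had a late strong region, Cd28 (113), Cd6 (103) and Cd2 (89). Over all protein-coding genes, 69.0% had a naive region, 16024 of 21900 a 72 h region and 8.84% a late strong region. Of 10 genes each, 9 B cell, 7 myeloid and 9 CD8 and NK markers had a naive region, and 9, 6 and 8 a 72 h region. These gene counts therefore do not separate T cells from other cells. B cell markers had 4 late strong of 36 regions (11.1%, 3.11 to 26.1%), 3 of them in Ebf1 (116, 154 and 86) and 1 near Cd22 (80). Myeloid markers had 1 of 10, near Fcgr1 (132), and CD8 and NK cell markers 2 of 17, at Klrg1 (132) and Klrd1 (81). Regions at these markers were listed in naive cells as well, with 25 at the B cell, 24 at the myeloid and 19 at the CD8 and NK markers, and whether other cells were present was not tested.

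**Figure D5:**
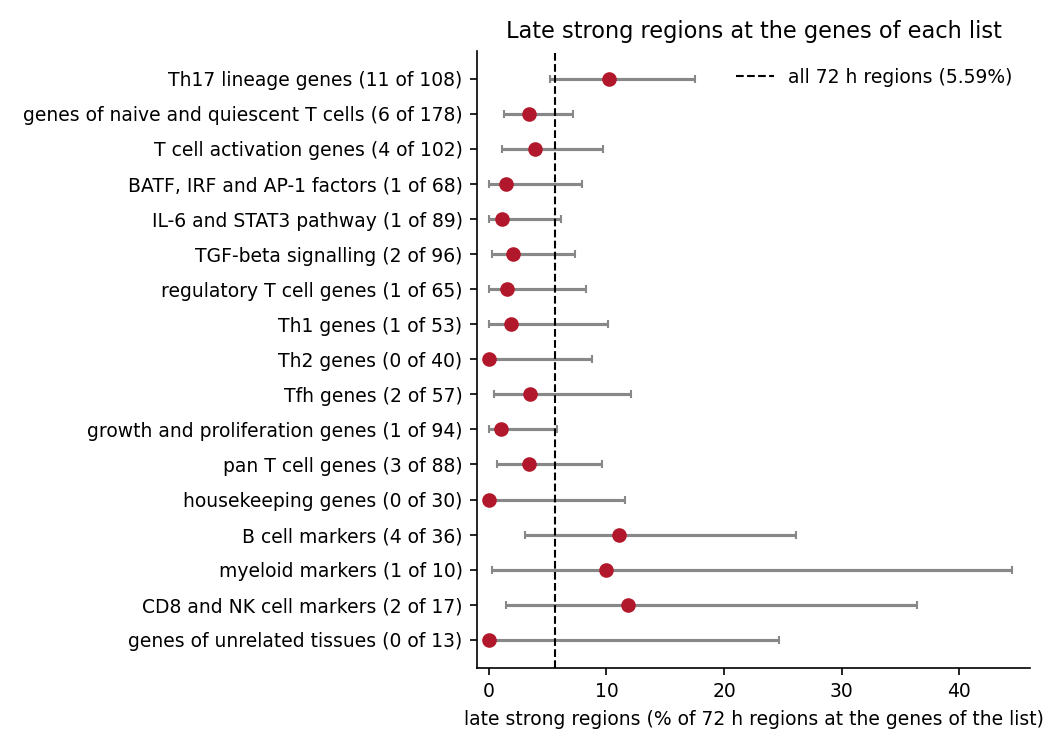
Late strong regions as a share of the 72 h regions at the genes of each list (%, horizontal axis, with exact 95% intervals and counts in the labels). The dashed line is the 5.59% of all 72 h regions. Th17 lineage genes stand at 10.2% and no interval lies wholly above the line. The share at any protein-coding gene, 4.95%, lies just below the Th17 interval and inside that of every other list.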

How the data were processed

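The deposited files are 1 peak list per condition. The 48 h and 72 h lists give a score per peak as the authors wrote it, on an unstated scale, and the naive list has none. Per the submitters' processing notes, the tools were MACS2 2.2.6, SAMtools 1.9, deepTools and Bowtie2 2.3.4.1, and the builds mm10 and GRCm38. Pooling, calling threshold and any Tn5 shift were not given in the sources used here. From the naive peaks, 1 line without values was dropped.

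Peaks sharing at least 1 bp were merged with Python 3.11.15, pandas 2.3.3 and NumPy 2.4.6, and the merging and classes were tested on simulated data. Gene bodies (protein-coding, no strand) and promoter windows came from RefSeq, GRCm38.p6; chromosome 18 promoter windows are not used here. Exact Clopper-Pearson 95% intervals (SciPy 1.17.1) cover counting error only. Motifs were read in promoter windows on both strands. Members and the 17 gene lists were chosen with earlier results of these data known. Named are the 20 top-scoring regions, the 15 genes with most regions, Th17 and naive list genes with a region, up to 4 genes of each other list, the top promoter regions, and the highest-scoring genes without an earlier region, which were added after seeing the values. Some items that this rule names are not reported here.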

Additional observations from a re-analysis of the deposited data

How the results depend on the processing

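No paired analysis was possible because each condition has 1 list, and leaving out a replicate was not possible for the same reason; motifs over whole regions were not run, since only promoter windows had sequence. The number of late strong regions (2904) was 1437 at a score of 100 or more and 5445 at 60 or more. The share near a gene end (4.65%) was 3.34% and 5.75% at these scores, 7.37% when an earlier peak had to cover at least 50% of the 72 h peak, 9.23% within 2.5 kb, 3.79% for transcription starts alone without chromosome 18, and 3.81% when an earlier peak up to 1 kb away counted as present, a setting chosen after seeing the data. The share within 10 kb of a region shared by 48 h and 72 h (20.5%) was 17.7% when peaks up to 250 bp apart were merged, 54.9% within 50 kb and 16.0% with the 1 kb allowance. The share of genes (8.84%) was 8.29% with the 250 bp merging, 12.4% with the 50% cover, 4.42% and 15.2% at scores of 100 and 60, 18.2% with 50 kb flanks, 6.29% for the gene body alone and 7.49% with the 1 kb allowance. Th17 genes numbered 3 at a score of 100 or more, against 9. Naive genes numbered 2 and 7 at scores of 100 and 60 and 7 with 50 kb flanks, against 4. With the 50% cover the number of regions was 4086, and with the 1 kb allowance 2518 regions and 6 Th17 genes were left. The share inside a gene was between 51.3% and 53.4% in the settings run. The wider distances and other scores change what is counted; the cause of the other shifts was not tested. Depth is unknown, so a missing peak cannot be told from a weak one.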

Other observations

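Several other genes of T cell biology had late strong regions; they were chosen after their values were seen, so their number says nothing about such genes in general. Tnfrsf8, which encodes CD30, had 3 late strong of 11 regions at 72 h, with scores of 131, 79 and 152. Cd274, which encodes PD-L1, had 2 of 6 (90 and 124), and Bcl2, the survival gene, had 3 of 22 (136, 100 and 89). Runx2, a RUNX family factor, had 2 of 22 (187 and 160), and Tgfb2, a TGF-β ligand, had 2 of 4 (160 and 94) with 0 regions in naive cells.

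Some loci are shared between neighbours. Within 10 kb of Dusp16, a phosphatase that acts on MAP kinases, lay 3 of 10 regions (214, 90 and 108), of which the highest was inside Borcs5. Within 10 kb of Il24, a cytokine of the IL-10 family, lay 2 of 4 (157 and 107), of which the lower was near an end of Fcmr. Within 10 kb of Irf5 lay 2 of 4 (78 and 118), of which the higher was inside Tnpo3. Ccr1, a chemokine receptor gene, had 1 of 2, with a score of 91, on its gene end, and Tnfaip3, an inhibitor of NF-κB signalling, had 1 of 5, with a score of 103 and 5086 bp from the gene.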
